A study of Homo sapiens with 18 samples.

Results

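The genes described here are the subunits of activator protein 1 (AP-1) and immediate early genes induced with them: FOS, FOSB, FOSL1, FOSL2, JUN, JUNB, JUND, EGR1, DUSP1 and IER3. They were taken by gene symbol from a list of 10 genes, and 9 of the 10 had at least 1 probe set that the authors' gene tables name. These 9 genes had 19 probe sets, of 19147 genes with a named probe set and 54613 probe sets tested. FOSL1, which encodes the subunit FRA1, had no named probe set and was not analysed here. For each gene the probe set with the highest mean over the 18 arrays gives the main value, and the others stand beside it.

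The study followed human ductal carcinoma in situ (DCIS) cells in the mouse intraductal (MIND) model, in which cells are injected into the mammary ducts of NSG (NOD-SCID IL2Rgamma null) virgin female mice aged 8 to 10 weeks. Epithelial cells carrying EpCAM were pulled from the digested glands on magnetic beads, and their RNA was hybridised to Affymetrix HG-U133 Plus 2.0 arrays. There were 6 groups of 3 arrays: SUM225 xenografts at 2, 6 and 10 weeks after injection and DCIS.COM xenografts at 2, 6 and 10 weeks after injection. SUM225 is a DCIS line that carries the growth factor receptor HER2 and lacks estrogen and progesterone receptors, and DCIS.COM lacks all 3 receptors. No group received a drug or a genetic change, all 6 groups grew in the same immunodeficient host, each model is 1 cell line, and each array holds RNA from the pooled cells of 5 mice. The comparisons asked what changed between weeks within a line and what differed between the lines at the same week.

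AP-1 is a dimer of basic leucine zipper proteins, either a Jun protein with a Fos protein or a pair of Jun proteins, that binds DNA and switches on genes of growth, migration and matrix turnover. FOS, FOSB, JUNB and EGR1 are immediate early genes, transcribed within minutes of a growth factor, stress or adhesion signal without new protein synthesis. DUSP1 is a phosphatase that shuts off the MAP kinases that induce these genes, and IER3 is an early response gene that acts on cell survival. In the breast, Fos and Jun proteins act downstream of HER2 and EGF receptor signalling.

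In SUM225 xenografts 5 of the 9 genes, FOS, FOSB, JUN, JUNB and DUSP1, were higher at 6 weeks than at 2 weeks, by 1.69-fold to 10.8-fold, and none was called lower. In the same comparison 48.2% of all genes were called, so the count alone does not set the 9 apart. In DCIS.COM xenografts IER3 was 1.59-fold higher and JUND 1.54-fold lower over the same weeks, and FOS differed by -0.05 on the log2 scale. At 6 and 10 weeks FOS, FOSB, JUND and DUSP1 were higher in SUM225 than in DCIS.COM, while FOSL2 and IER3 were lower. Values are log2 expression values as deposited, n = 3 arrays per group throughout. A difference is called where limma's adjusted p, by Benjamini-Hochberg over all probe sets, is under 0.05. The labels call the 3 arrays of a group biological replicates, each from its own pool of mice, so the p-values measure the spread between pools.

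The line labels were checked against their markers. ERBB2, the HER2 gene, lay between 12.46 and 12.68 in SUM225 at the later weeks and between 8.24 and 9.31 on the DCIS.COM arrays. The luminal keratin gene KRT19 lay between 11.92 and 12.31 in SUM225 at those weeks, against at most 6.95 in DCIS.COM, while the basal keratin gene KRT14 lay between 7.20 and 7.94, against 12.38 to 13.40. The SUM225 arrays of 2 weeks, on which every SUM225 change since 2 weeks rests, stood apart and met their label less well. On replicates 1, 2 and 3 ERBB2 was 12.42, 11.32 and 9.21, the last within the DCIS.COM range, KRT19 was 11.49, 9.11 and 7.27, and KRT14 was 9.61, 10.89 and 10.26. Their pairwise correlations over all probe sets were 0.904, 0.76 and 0.926, against at least 0.966 in the other groups, and EPCAM was 12.73, 11.72 and 8.59 on replicates 1, 2 and 3, against 12.11 to 13.04 on the other 15 arrays. The difference between the 3 prime and 5 prime control probe sets of ACTB, a control for transcript completeness, was 1.20, 0.61 and -2.56 there, against 1.37 to 4.28 elsewhere. The same difference for GAPDH was 1.84, 2.95 and 0.61, against 0.85 to 1.65, and its 3 prime probe set was 13.27, 12.24 and 11.14, against at least 13.38. Within DCIS.COM the ACTB difference was 1.37 to 1.56 at 2 weeks, 2.68 to 3.18 at 6 weeks and 2.35 to 4.28 at 10 weeks. The GAPDH difference there was 1.02 to 1.13, 0.85 to 1.03 and 0.94 to 1.23. Their part in the DCIS.COM changes since 2 weeks was not tested. The median of 13 leukocyte markers was 5.87, 6.17 and 6.74 on the 3 SUM225 arrays of 2 weeks, against 5.25 to 6.20 elsewhere, while the pan-leukocyte marker PTPRC was at most 5.42 on all arrays. The median over 9 fibroblast markers was 6.66, 7.28 and 7.66, against 5.88 to 6.99. The array is a human one and the host a mouse, so these leukocyte and fibroblast markers cannot be read as a measure of host cells. In bulk samples such as these, fewer cells of a type and less RNA per cell cannot be told apart. The median probe set was lower by 0.39 at 6 weeks than at 2 weeks in SUM225 and by 0.15 in DCIS.COM, and higher by 0.27 in SUM225 than in DCIS.COM at 2 weeks.

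Promoter sequences were read for the 8 genes that the RefSeq table lists (build GRCh38.p14), as the 140 bases before the transcription start. Of the 8, 5 are shown because they belong to the genes whose change the results turn on: FOS, FOSB and DUSP1, which were higher with time in SUM225, JUND, which was lower, and EGR1, whose probe sets disagreed. Capitals mark TGACG on either strand (CGTCA as printed on the other strand), the core of the cyclic AMP response element bound by CREB and ATF proteins, and the CArG box, the core of the serum response element, a run of A and T between CC and GG.
FOS, chr14:75278688-75278827, plus strand: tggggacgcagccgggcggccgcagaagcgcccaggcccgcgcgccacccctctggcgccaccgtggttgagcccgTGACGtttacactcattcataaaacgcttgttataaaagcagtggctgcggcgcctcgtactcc
FOSB, chr19:45467856-45467995, plus strand: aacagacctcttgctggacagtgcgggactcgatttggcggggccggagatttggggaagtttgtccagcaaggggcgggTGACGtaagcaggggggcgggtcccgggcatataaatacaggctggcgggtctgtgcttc
DUSP1, chr5:172771196-172771335, minus strand: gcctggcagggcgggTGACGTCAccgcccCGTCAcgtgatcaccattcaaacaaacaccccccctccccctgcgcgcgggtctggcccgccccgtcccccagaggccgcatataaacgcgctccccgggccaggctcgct
JUND, chr19:18281623-18281762, minus strand: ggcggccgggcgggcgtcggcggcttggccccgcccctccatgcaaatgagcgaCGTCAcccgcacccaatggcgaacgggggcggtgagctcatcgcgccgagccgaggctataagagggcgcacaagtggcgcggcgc
EGR1, chr5:138465339-138465478, plus strand: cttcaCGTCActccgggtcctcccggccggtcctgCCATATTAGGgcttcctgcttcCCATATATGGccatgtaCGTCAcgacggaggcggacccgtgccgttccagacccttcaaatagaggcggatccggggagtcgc
TGACG was found in all 8 promoters at this length, against 14.7% of 35116 RefSeq promoters of the same length, and in all 8 over 250 bases, against 21.2%. In DUSP1 the motif on 1 strand overlaps that on the other and makes the palindrome TGACGTCA. Within these 140 bases a CArG box was found in EGR1 only, at a pair of sites, against 0.749% of all promoters. Over 250 bases it was found in 1 of the 8, against 1.16%. Bases further upstream were not read, so no gene is said to lack the box. The length was set after the matches were seen, and a match is a description of the letters.

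FOS, the founding member of the Fos family, is an immediate early gene whose protein forms no stable homodimer and pairs with Jun proteins. In SUM225 it was 12.98, 12.88 and 13.10 at 6 weeks and 12.93, 13.15 and 13.33 at 10 weeks, against 11.42, 10.05 and 8.36 at 2 weeks. The 2-week arrays all lay below the later ones and spread widely, replicate 1 the highest and replicate 3 the lowest. FOS was 8.23-fold higher at 6 weeks than at 2 weeks (log2 difference 3.04, SE 0.67, adjusted p = 0.038) and 3.20 log2 units higher at 10 weeks (adjusted p = 0.024), and these comparisons share the 2-week arrays. In DCIS.COM it was 11.00, 10.98 and 10.92 at 10 weeks and 11.39, 11.22 and 11.70 at 6 weeks, against 12.26, 11.05 and 11.13 at 2 weeks. The 2-week and 6-week arrays overlapped, and no DCIS.COM comparison passed the test (adjusted p = 0.91 for 6 against 2 weeks and 0.19 for 10 against 2 weeks).

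FOSB encodes a Fos protein that, like FOS, carries a transactivation domain. In SUM225 it was 11.73, 12.16 and 11.80 at 6 weeks and 11.77, 11.91 and 12.41 at 10 weeks, against 9.76, 8.13 and 7.50 at 2 weeks. Here too every later array lay above every 2-week array. The difference of 10.8-fold at 6 weeks was the largest among the 9 genes' main probe sets (log2 3.43, SE 0.53, adjusted p = 0.033), and at 10 weeks it was 3.57 (adjusted p = 0.015). In DCIS.COM it was 9.54, 10.79 and 10.80 at 10 weeks and 11.31, 10.70 and 11.38 at 6 weeks, against 11.14, 9.86 and 10.19 at 2 weeks, with all 3 groups overlapping. The DCIS.COM difference at 6 weeks, 0.73 (SE 0.32), did not pass the test (adjusted p = 0.096).

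FOSL2 encodes FRA2, a Fos protein without the strong activation domain of FOS. It was 7.29, 7.40 and 6.77 in SUM225 at 6 weeks and 7.29, 6.79 and 7.13 at 10 weeks, against 6.51, 6.79 and 6.79 at 2 weeks, and in DCIS.COM every array lay between 7.99 and 9.28. The DCIS.COM arrays lay above the SUM225 arrays at every week and no change with time was called by this probe set in either line. FOSL2 was the only gene of the 9 called between the lines at 2 weeks, 3.92-fold lower in SUM225 (log2 -1.97, SE 0.31, adjusted p = 0.025). The difference was -1.39 at 6 weeks (SE 0.16, adjusted p = 0.0001341) and -1.43 at 10 weeks (SE 0.23, adjusted p = 0.0013). The probe set 228188_at gave -2.30 and -2.50 at these weeks, both called. None of the other 3 was called between the lines at 6 or 10 weeks: 218880_at gave -0.46 and -0.31, 218881_s_at gave -0.30 and -0.43, and 205409_at gave 0.11 and 0.15. At 2 weeks none of the 4 dimmer probe sets was called, with -1.35 in 228188_at and -0.77 in 218880_at but 0.29 in 218881_s_at and 0.46 in 205409_at, so the direction holds for the brightest probe set and 228188_at. Over time 218880_at was 1.39 higher in SUM225 at 6 weeks than at 2 weeks (adjusted p = 0.046). Leaving out any 1 DCIS.COM array of 2 weeks, or SUM225 replicate 2, took the 2-week call away (adjusted p = 0.068 to 0.138).

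**Figure D1:**
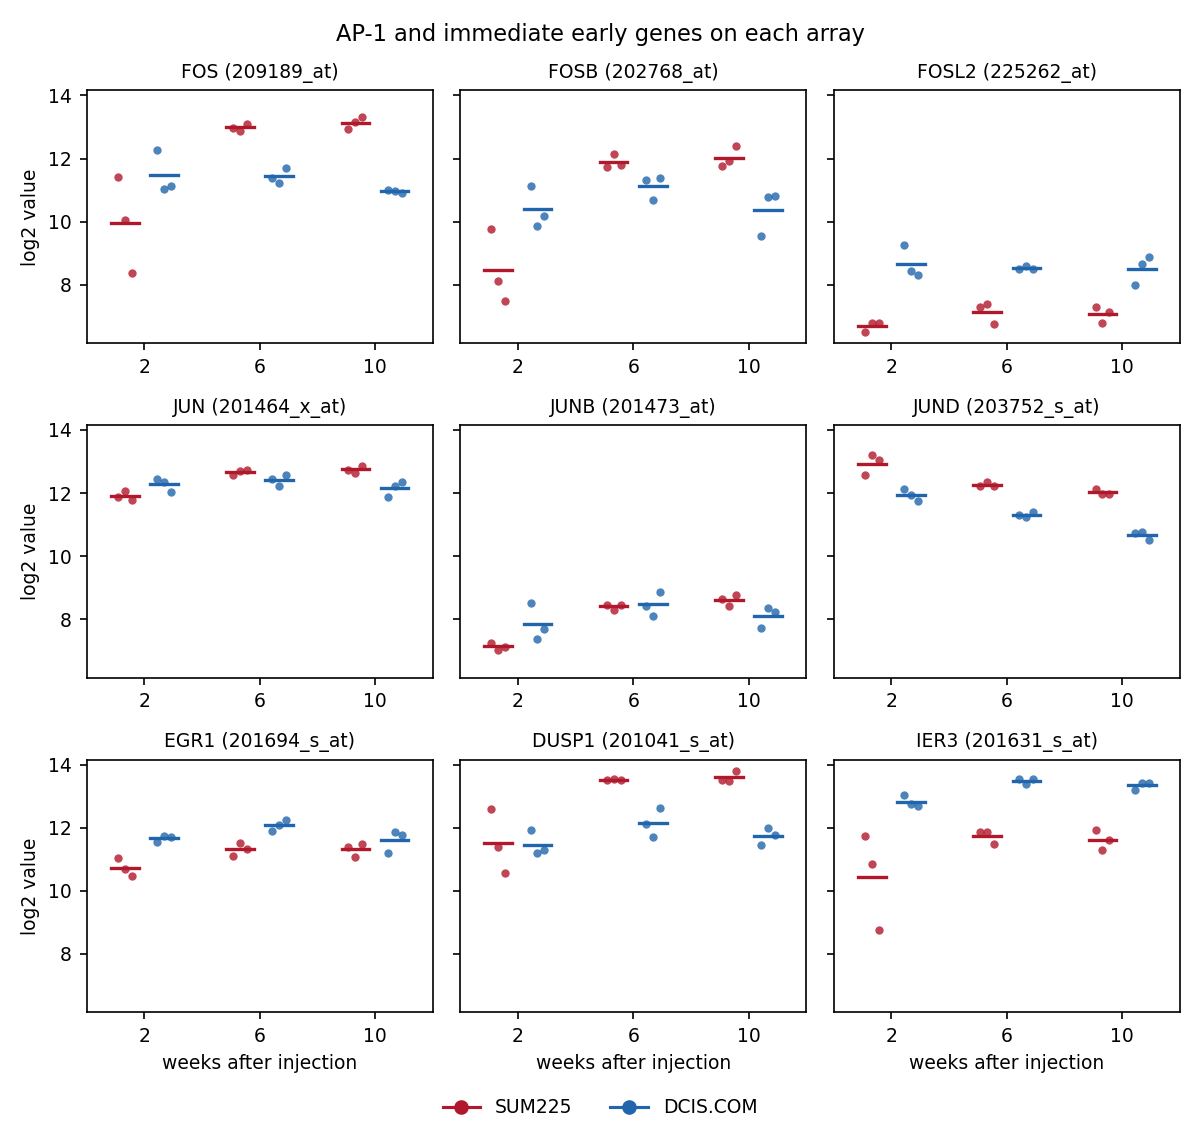
Log2 expression value of each gene's brightest probe set (y axis) against weeks after injection (x axis), with SUM225 arrays in red left of DCIS.COM arrays in blue, a point for each array and a bar for the mean of 3. FOS in SUM225 runs from 8.36 to 11.42 at 2 weeks and from 12.88 to 13.33 at the later weeks, and the JUND mean is lower at each later week in both lines.

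JUN encodes the main Jun partner of the dimer. Its brighter probe set was 12.58, 12.69 and 12.73 in SUM225 at 6 weeks and 12.73, 12.65 and 12.87 at 10 weeks, against 11.87, 12.08 and 11.78 at 2 weeks. It was 1.69-fold higher at 6 weeks (log2 0.76, SE 0.20, adjusted p = 0.038) and 0.84 higher at 10 weeks (adjusted p = 0.026), with no overlap of the arrays. The dimmer probe set, 201466_s_at, was 11.93, 11.91 and 11.80 at 6 weeks, against 10.41, 8.55 and 6.22 at 2 weeks, a difference of 3.49 (SE 0.90, adjusted p = 0.038) on the log2 scale. Both probe sets were higher, by different amounts. In DCIS.COM the dimmer one was 0.91 higher at 6 weeks than at 2 weeks (adjusted p = 0.013), and the brighter one differed by 0.14 (adjusted p = 0.50).

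JUNB encodes a Jun protein that is itself an immediate early product and a weaker activator than JUN. In SUM225 it was 8.45, 8.31 and 8.47 at 6 weeks and 8.63, 8.43 and 8.77 at 10 weeks, against 7.25, 7.03 and 7.14 at 2 weeks. The 3 SUM225 arrays of 2 weeks lay close together for this gene, unlike FOS and FOSB. It was 2.41-fold higher at 6 weeks (log2 1.27, SE 0.19, adjusted p = 0.033) and 1.47 higher at 10 weeks (adjusted p = 0.014). The DCIS.COM arrays, 8.44, 8.10 and 8.88 at 6 weeks against 8.52, 7.37 and 7.68 at 2 weeks, overlapped (log2 0.62, adjusted p = 0.13). No difference in JUNB between the lines was called at any week.

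JUND, the Jun gene that is expressed steadily in resting cells, moved the other way. In SUM225 it was 12.22, 12.36 and 12.23 at 6 weeks and 12.13, 11.99 and 11.99 at 10 weeks, against 12.57, 13.20 and 13.04 at 2 weeks. In DCIS.COM it was 11.31, 11.26 and 11.39 at 6 weeks and 10.74, 10.78 and 10.51 at 10 weeks, against 12.14, 11.94 and 11.77 at 2 weeks. In both lines the 3 groups did not overlap, and the mean was lower at each later week. JUND was lower at 10 weeks than at 2 weeks in both lines, with a log2 difference of -0.90 in SUM225 (SE 0.24, adjusted p = 0.027) and of -1.27, or 2.41-fold, in DCIS.COM (SE 0.17, adjusted p = 0.0047). Between 6 and 2 weeks the difference was -0.63 in DCIS.COM (SE 0.15, adjusted p = 0.018) and -0.67 in SUM225 (SE 0.23), which just missed the threshold (adjusted p = 0.053). The 2 other probe sets of JUND gave between -0.40 and -0.57 for these weeks in the lines, of which 1 value, in DCIS.COM, was called. The DCIS.COM call of 6 weeks was lost where arrays were centred on their medians (-0.47, adjusted p = 0.058) and without any 1 of its 6-week arrays (adjusted p of at most 0.0623), and its 10-week call held in every alternative run. The SUM225 call of 10 weeks held, of the 6 arrays left out in turn, only without 2-week replicate 1 (adjusted p of at most 0.109 otherwise), and it was lost in the trended robust fit (adjusted p = 0.42).

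EGR1, a zinc finger transcription factor induced with FOS, was measured by 3 probe sets that did not move together. The brightest, 201694_s_at, was 11.11, 11.51 and 11.33 in SUM225 at 6 weeks and 11.39, 11.08 and 11.47 at 10 weeks, against 11.03, 10.68 and 10.48 at 2 weeks. Its difference of 0.59 at 6 weeks missed the threshold (SE 0.23, adjusted p = 0.071), as did 0.41 in DCIS.COM (adjusted p = 0.063), and with arrays quantile normalised again the SUM225 value was -0.31. The probe set 227404_s_at was 11.54, 11.93 and 11.85 in SUM225 at 6 weeks, against 11.17, 10.19 and 9.50 at 2 weeks, 1.49 higher (adjusted p = 0.039). In DCIS.COM the same probe set was 10.64, 10.15 and 10.31 at 10 weeks and 11.13, 10.99 and 10.93 at 6 weeks, against 12.39, 11.26 and 11.40 at 2 weeks, a log2 difference of -1.32 at 10 weeks (adjusted p = 0.018). These DCIS.COM arrays fell into 3 separate ranges, the lowest at 10 weeks. The probe set 201693_s_at was higher at 6 weeks than at 2 weeks in both lines, by 2.27 in SUM225 (adjusted p = 0.038) and by 0.72 in DCIS.COM (adjusted p = 0.012).

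The order of the lines in EGR1 also hung on the probe set. At 6 weeks the brightest probe set was lower in SUM225 than in DCIS.COM (log2 -0.76, adjusted p = 0.0026), and 227404_s_at was 0.76 higher (adjusted p = 0.0016). At 10 weeks 227404_s_at was 1.31 higher in SUM225 (adjusted p = 0.0004547), and the brightest differed by -0.30 (adjusted p = 0.33). No direction is given for EGR1 between the lines.

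**Figure D2:**
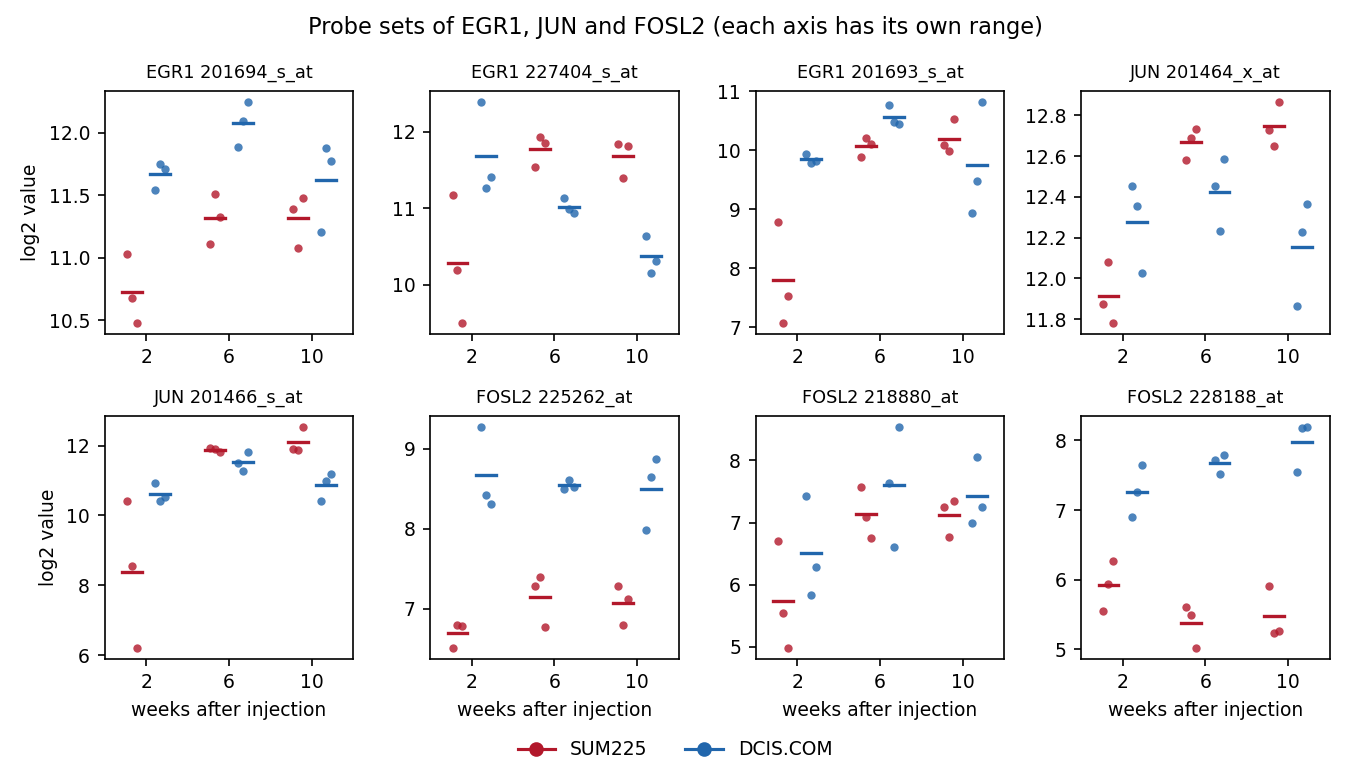
Log2 value (y axis, its range set for each panel) of the probe sets of EGR1, JUN and FOSL2 against weeks after injection (x axis), SUM225 in red left of DCIS.COM in blue, points for arrays and bars for means of 3. Of the 3 EGR1 probe sets, 227404_s_at is higher with time in SUM225 and lower with time in DCIS.COM, and 201694_s_at does not show this.

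DUSP1, the MAP kinase phosphatase, was 13.50, 13.53 and 13.52 in SUM225 at 6 weeks and 13.52, 13.49 and 13.79 at 10 weeks, against 12.58, 11.39 and 10.56 at 2 weeks. The 6-week arrays lay closer together than any other group of this gene (SD 0.02). It was 4.01-fold higher at 6 weeks (log2 2.01, SE 0.47, adjusted p = 0.038) and 2.09 higher at 10 weeks (adjusted p = 0.025), and the other probe set, 201044_x_at, was 1.29 higher at 6 weeks (adjusted p = 0.038). In DCIS.COM it was 12.12, 11.71 and 12.64 at 6 weeks, against 11.92, 11.18 and 11.28 at 2 weeks, a difference of 0.70 (SE 0.27) that missed the threshold (adjusted p = 0.069).

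IER3, the early response gene linked to survival, was the gene with a call in DCIS.COM and none with time in SUM225. In DCIS.COM it was 13.54, 13.38 and 13.55 at 6 weeks and 13.19, 13.41 and 13.43 at 10 weeks, against 13.04, 12.75 and 12.68 at 2 weeks. The later arrays all lay above the 2-week arrays, by 0.67 on average at 6 weeks (SE 0.15, adjusted p = 0.016) and by 0.52 at 10 weeks (adjusted p = 0.047). In SUM225 it was 11.86, 11.87 and 11.47 at 6 weeks and 11.91, 11.30 and 11.61 at 10 weeks, against 11.75, 10.84 and 8.76 at 2 weeks, so that replicate 1 of 2 weeks lay within the later range (log2 1.29, SE 0.68, adjusted p = 0.14). The DCIS.COM call of 6 weeks was lost without 2-week replicate 3 or 6-week replicate 1 or 3 (adjusted p of at most 0.0672) and in 1 fit over 18 arrays (adjusted p = 0.30). The call of 10 weeks was lost without replicate 2 or 3 of either week (adjusted p of at most 0.154), with quantile normalisation again (adjusted p = 0.094) and in 1 fit over 18 arrays (adjusted p = 0.40). It was also lost with probe sets averaging under 5 left out and with the replicate number as a block.

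Over the 9 genes, SUM225 at 6 against 2 weeks had 5 higher and 0 lower, where 48.2% of all genes were called in either direction. The median of the 9 was 1.27 on the log2 scale, against -0.38 over all genes. Each of the 9 averaged 7.77 or more over the arrays. Over all probe sets the median was -0.39, and -0.10 once those averaging under 5 were left out. Medians of 1.80 for epithelial and line markers, 1.82 for heat shock genes and 1.33 for upstream kinases and factors were as high. AP-1 targets (-0.36), dimer partners (0.16) and markers of other cell types had lower medians. The median alone therefore does not set the 9 apart. Of the 9, 7 had groups that did not overlap, as did 77.0% of all genes. By probe set, 10 of 19 were higher and 0 lower. As background, limma called 8422 of the 54613 tested probe sets higher in this comparison, and 12754 lower. In DCIS.COM 1 gene was higher and 1 lower, where 42.6% of all genes were called. The median of the 9 was 0.41, against -0.14 over all genes. Over all probe sets it was -0.15, and 0.002 without those averaging under 5. Epithelial and line markers had 0.44, heat shock genes 0.22 and upstream kinases and factors 0.26. Of the 9, 3 had groups that did not overlap, as did 61.9% of all genes. The gene names came from lists of probe sets that the authors had called in these very comparisons. All 19 probe sets were in the SUM225 list, 10 of them in that list alone and 9 in both. The counts over the 9 genes and over their 19 probe sets are therefore not independent of that choice.

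**Figure D3:**
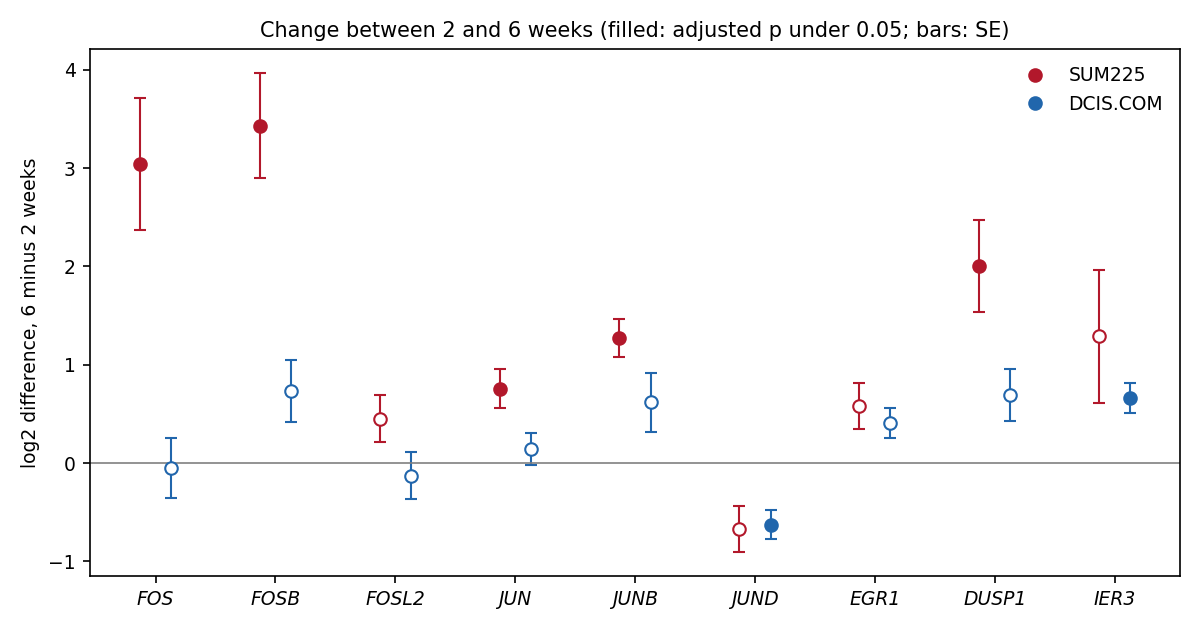
Log2 difference of 6 minus 2 weeks (y axis) for each gene's brightest probe set (x axis), SUM225 left of DCIS.COM, with bars for the SE and filled points where the adjusted p is under 0.05. FOS and FOSB are 3.04 and 3.43 higher in SUM225, against -0.05 and 0.73 in DCIS.COM, and the JUND points lie below 0 in both lines.

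At 10 against 2 weeks the 9 genes gave 5 higher and 1 lower in SUM225, where 58.6% of all genes were called, and 1 higher and 1 lower in DCIS.COM, where 37.0% were called. At 10 against 6 weeks limma called none of the 9 in either line. The background was 0.00522% of genes in SUM225 and 0.0157% in DCIS.COM. At an unadjusted p under 0.05 there was 1 of the 9 in SUM225, where 7.11% of all genes were, and 3 of the 9 in DCIS.COM, where 3.70% were. By SAM, the permutation method of the study, none of the 9 was called in these weeks in either line. Of 54613 probe sets SAM called 127 higher and 12 lower in SUM225, and 0 and 0 in DCIS.COM. In SUM225 the differences of 10 against 6 weeks were at most 0.24 in size. In DCIS.COM they were -0.75 for FOSB, -0.64 for JUND and -0.47 for FOS, the lowest adjusted p being 0.8277 in JUND.

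The SUM225 calls at 6 weeks depended on which arrays entered the fit. Of the 6 arrays, each left out in turn, all 5 genes kept their call only without replicate 1 of 2 weeks, and with any other array left out their adjusted p was between 0.060 and 0.138. The difference kept its sign throughout, from 2.25 to 3.78 in FOS, 2.95 to 4.08 in FOSB, 0.69 to 0.84 in JUN, 1.22 to 1.33 in JUNB and 1.53 to 2.54 in DUSP1. At 10 against 2 weeks the same 5 genes kept their call without 2-week replicate 1 or 3, and lost it without 2-week replicate 2 or any 10-week array (adjusted p of at most 0.1095). With both 2-week arrays of low EPCAM left out, replicates 2 and 3, the lone remaining array was assumed to vary like the 6-week arrays. All 5 stayed called, with 1.56 in FOS (adjusted p = 0.0075), 2.13 in FOSB (adjusted p = 0.0073), 0.80 in JUN, 1.16 in JUNB and 0.93 in DUSP1, while IER3 was -0.01 and JUND -0.30. With arrays quantile normalised again, FOS was 2.24 (adjusted p = 0.070), FOSB 2.71 (0.062), JUNB 0.85 (0.066), DUSP1 1.31 (0.069) and JUN 0.10 (0.77), and none was called. Of all genes, 9 were called higher and 0 lower in that setting. The trended robust fit took the call from JUN (adjusted p = 0.49) and DUSP1 (adjusted p = 0.11). The part of EPCAM level, leukocyte and fibroblast markers and the ACTB ratio in these differences was not tested.

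**Figure D4:**
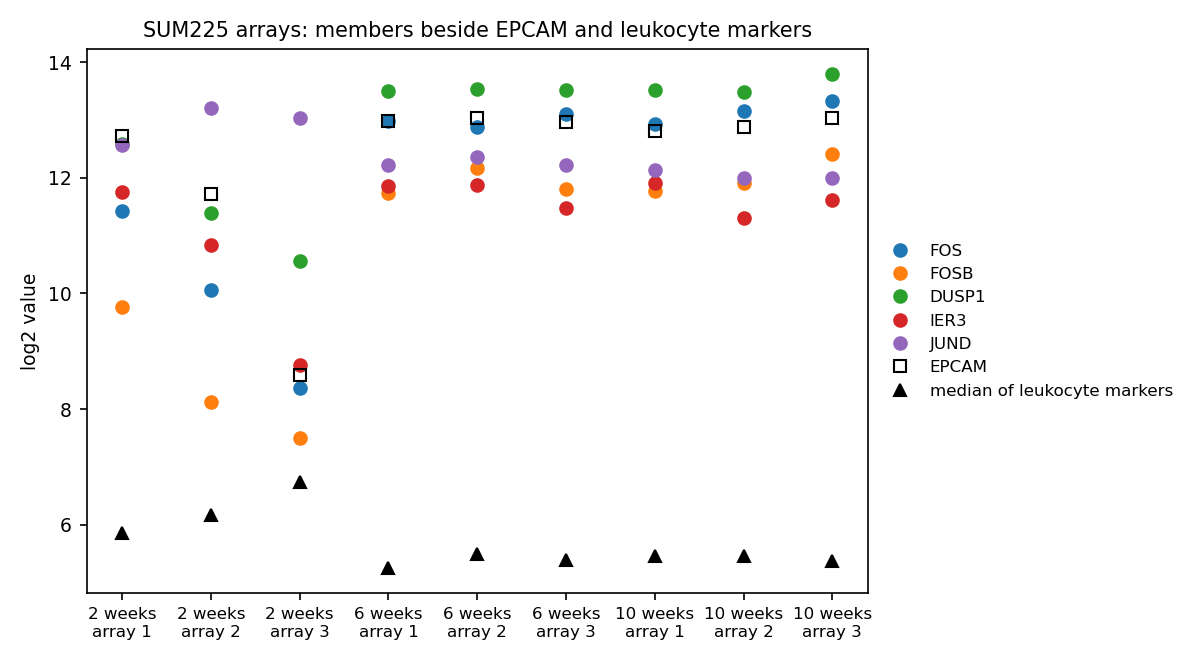
Log2 values (y axis) of FOS, FOSB, DUSP1, IER3 and JUND on the 9 SUM225 arrays (x axis, by week and replicate), with EPCAM as open squares and the median of the leukocyte markers as triangles. At 2 weeks EPCAM is 12.73, 11.72 and 8.59 and FOS 11.42, 10.05 and 8.36, while JUND is 12.57, 13.20 and 13.04.

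Whether the lines differed in their change was tested on 12 arrays as the SUM225 change minus the DCIS.COM change, 6 against 2 weeks. It was 3.09 in FOS (SE 0.83, adjusted p = 0.14), 2.70 in FOSB (adjusted p = 0.12), 1.31 in DUSP1 (adjusted p = 0.38), 0.65 in JUNB and 0.61 in JUN (adjusted p = 0.34). In JUND it was -0.04. None of the 9 was called by limma, where 1.24% of all genes were, and 4 of the 9 had an unadjusted p under 0.05, where 15.5% of all genes did. Without SUM225 replicate 1 of 2 weeks the difference was called in FOS (3.83, adjusted p = 0.0016), FOSB (3.35, adjusted p = 0.0009625) and DUSP1 (1.85, adjusted p = 0.0079), and in 1 fit over 18 arrays in FOS (adjusted p = 0.038). Without the arrays of low EPCAM it was 1.61 in FOS (adjusted p = 0.23), 1.40 in FOSB and 0.24 in DUSP1. In the fit to all 12 arrays the changes of the 9 genes were not shown to differ between the lines.

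Between the lines at the same week most calls came at the later weeks. At 6 weeks FOS was 2.93-fold higher in SUM225 (log2 1.55, SE 0.14, adjusted p = 2.635e-05), and DUSP1 2.57-fold higher (log2 1.36, SE 0.20, adjusted p = 0.0006155). JUND was 0.95 higher (SE 0.10, adjusted p = 9.879e-05) and FOSB 0.77 higher (SE 0.19, adjusted p = 0.013), the last lost without SUM225 replicate 2 of 6 weeks (adjusted p = 0.064) or in 1 fit over 18 arrays (adjusted p = 0.40). IER3 was 3.38-fold lower in SUM225 (log2 -1.76, SE 0.14, adjusted p = 9.703e-06). JUN, at 0.25, and JUNB, at -0.06, were not called. In all, by brightest probe set, 4 genes were higher and 3 lower in SUM225, where 37.0% of all genes were called. The 3 lower were FOSL2, IER3 and EGR1, the last with another probe set called higher.

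At 10 weeks the gaps in FOS and FOSB were 2.17 (SE 0.14, adjusted p = 4.61e-06), or 4.51-fold, and 1.65 (SE 0.32, adjusted p = 0.0042). DUSP1 was 3.63-fold higher in SUM225 (log2 1.86, SE 0.17, adjusted p = 3.998e-05) and JUND 1.36 higher (SE 0.13, adjusted p = 6.449e-05). JUN was 0.60 higher (adjusted p = 0.019), a call lost without SUM225 replicate 3 of 10 weeks (adjusted p = 0.086). IER3 was 3.32-fold lower (log2 -1.73, SE 0.17, adjusted p = 7.158e-05). Here 5 genes were higher and 2 lower in SUM225, where 32.2% of all genes were called. At 2 weeks only FOSL2 was called, where 2.44% of all genes were. The other differences there had wide errors, such as -1.54 in FOS (SE 0.72, adjusted p = 0.37), -2.38 in IER3 (adjusted p = 0.15) and 0.05 in DUSP1.

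Ranked by group mean, FOS, FOSB and DUSP1 shared a top pair, SUM225 at 10 weeks and SUM225 at 6 weeks, whose arrays overlapped with each other and with no other group. In FOS the means were 13.14 ± 0.20 and 12.99 ± 0.11 (SD), and DCIS.COM at 2 weeks came next at 11.48 ± 0.68. The lowest group in FOS was SUM225 at 2 weeks, 9.95 ± 1.54, which overlapped DCIS.COM at 10 weeks, 10.97 ± 0.04. IER3 ran in the opposite order of lines, with the 3 DCIS.COM groups on top and no overlap between the lowest of them and SUM225 at 6 weeks. JUND was highest in SUM225 at 2 weeks, 12.94 ± 0.33, and lowest in DCIS.COM at 10 weeks, 10.68 ± 0.15. In JUN every pair of neighbours in the order overlapped.

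Other genes of the pathway were described from lists by role, each by its brightest probe set. At 6 against 2 weeks 21.7% of all genes were higher and 26.5% lower in SUM225, and 22.5% and 20.0% in DCIS.COM. A count near these shares does not set a list apart. Of 10 other genes for dimer partners of AP-1, 3 were higher and 1 lower in SUM225 at 6 against 2 weeks (median 0.16), and 3 were higher and 0 lower in DCIS.COM (median 0.20). ATF3, a stress-induced partner of the Jun proteins, was 10.84 at 6 weeks, against 7.32 at 2 weeks, in SUM225 (log2 3.52, adjusted p = 0.038), and ATF7 was 2.22 higher in SUM225 and 1.65 higher in DCIS.COM. Of 25 other immediate early genes, 13 were higher and 1 lower in SUM225 (median 1.36), and 6 were higher and 0 lower in DCIS.COM (median 0.41). Among them GADD45B, a stress-induced growth arrest gene, was 2.60 higher in SUM225 (adjusted p = 0.031) and 1.58 higher in DCIS.COM (adjusted p = 0.024), and CTGF, a secreted matrix protein gene, was 2.35 higher in SUM225 and 1.12 higher in DCIS.COM. With the SUM225 arrays of low EPCAM left out the count was 11 higher and 1 lower (median 0.68).

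The feedback inhibitors of early gene signalling, 11 genes, had 6 higher and 0 lower in SUM225 (median 1.82) and 5 higher and 0 lower in DCIS.COM (median 0.52). SPRED2 and SPRY1, which block RAS signalling, were 2.62 and 2.05 higher in SUM225, and TNFAIP3, an inhibitor of NF-kappaB signalling, was 1.82 higher in SUM225 and 1.09 higher in DCIS.COM. Without the arrays of low EPCAM 4 of the 11 were higher in SUM225 and 0 lower (median 0.52). Of 16 upstream kinases and factors, 5 were higher and 2 lower in SUM225 (median 1.33) and 5 higher and 1 lower in DCIS.COM (median 0.26), with BRAF, the RAF kinase, 2.37 and 1.54 higher. Without those arrays 2 of the 16 were higher in SUM225 and 0 lower. Heat shock genes had 4 of 11 higher in SUM225, HSPA1A among them (13.75 at 6 weeks, against 11.24 at 2 weeks, adjusted p = 0.038), and 2 higher and 1 lower in DCIS.COM. Between the lines 8 of the 11 were higher and 2 lower in SUM225 at 6 weeks, and 7 higher and 0 lower at 10 weeks. Of all genes 19.7% were higher and 17.3% lower at 6 weeks, and 16.4% and 15.9% at 10 weeks. The glands were digested and sorted before RNA was taken, and the part of this handling in the values was not tested.

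Genes often named as AP-1 targets were mostly uncalled at 6 against 2 weeks in SUM225, where 48.2% of all genes were called. Of 20, 1 was higher and 3 lower at 6 against 2 weeks in SUM225 (median -0.36), and 8 were higher and 2 lower in DCIS.COM (median 0.43). TNC, a matrix glycoprotein gene, was 2.02 higher in SUM225. Between the lines 14 of the 20 were lower in SUM225 and 0 higher at 6 weeks, and likewise 14 and 0 at 10 weeks, with medians of -1.62 and -1.66. EREG, an EGF receptor ligand gene, was lower in SUM225 at 6 weeks (log2 -4.43, 6.88 in SUM225, against 11.32 in DCIS.COM, adjusted p = 8.883e-06). Of 25 other immediate early genes 2 were higher and 11 lower in SUM225 at 6 weeks, and 4 and 10 at 10 weeks. Among those lower at 6 weeks, EGR3 was 6.11 in SUM225, against 9.86 in DCIS.COM, and PHLDA1 was 8.37 in SUM225, against 12.89 in DCIS.COM. ZFP36, which destabilises messenger RNA, went the other way at 10 weeks, 12.54 in SUM225, against 10.70 in DCIS.COM. Median differences over all genes between the lines were 0.02 at 6 weeks and -0.01 at 10 weeks. Of all genes 19.7% were higher and 17.3% lower in SUM225 at 6 weeks, and 16.4% and 15.9% at 10 weeks.

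The marker lists moved in the comparison of 6 against 2 weeks too. Of 13 epithelial and line markers 3 were higher and 2 lower in SUM225 (median 1.80), and 3 higher and 1 lower in DCIS.COM (median 0.44). Without the SUM225 arrays of low EPCAM their SUM225 median was 0.11. The lists of other cell types went mostly the other way. The array is a human one and the host a mouse, so these markers cannot be read as a measure of host cell content. The leukocyte median of an array ran from 5.25 to 6.74, near the array medians of 5.41 to 5.84. Of 13 leukocyte markers 0 were higher and 8 lower in SUM225 and 1 higher and 8 lower in DCIS.COM, with medians of -0.87 and -0.56. Fibroblast markers had 0 higher and 6 lower of 9 in SUM225 and 0 higher and 2 lower in DCIS.COM. The counts lower were 5 of 10 endothelial and 5 of 6 erythroid markers in SUM225, and 6 of 10 and 5 of 6 in DCIS.COM. Adipocyte markers had 2 of 6 lower in SUM225 and 3 of 6 in DCIS.COM, and muscle markers 1 higher and 4 lower of 7 in SUM225 and 0 higher and 3 lower in DCIS.COM. With the SUM225 arrays of low EPCAM left out, 0 leukocyte markers were higher and 1 lower (median -0.42), fibroblast markers had 1 higher and 1 lower, 2 endothelial and 2 erythroid markers were lower, 0 adipocyte markers were called, and muscle markers had 1 higher and 1 lower. Their part in the differences of the 9 genes was not tested. The EPCAM difference of 6 against 2 weeks in SUM225 was 1.98 (SE 0.93), which did not pass the test (adjusted p = 0.10).

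The genes whose pattern over the 18 arrays lay nearest to that of FOS, by the root mean square difference of values centred on each gene's mean, were WBP5 (0.396), SKP2 (0.411), an F-box protein gene of the cell cycle, and FKBP1A (0.412), which encodes an immunophilin. FOSB came at rank 67 of 19146 genes (0.517) and DUSP1 at rank 92 (0.535). WBP5 averaged 10.86 at 6 weeks and 8.31 at 2 weeks in SUM225, and 9.73 and 9.48 in DCIS.COM at the same weeks.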

How the data were processed

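RNA from 18 pooled xenograft samples was measured on Affymetrix HG-U133 Plus 2.0 arrays, labelled from the poly(A) end with an oligo dT primer. The authors normalised the arrays by RMA, per the submitters' processing notes, and deposited log2 values, which were used as they are (Partek is also named there, and versions and a genome build are not given in the sources used here). The deposited arrays do not share 1 distribution: their medians run from 5.41 to 5.84. The authors' tables of probe sets passing SAM for 6 against 2 weeks hold deposited fold changes, as a ratio in 1 table and a signed score in the other, and q-values in percent, which were not used. Only their gene names were, so a probe set that passed in neither line has no name here: 36793 probe sets had 1 symbol, 866 several, 45 a symbol turned into a date, and 16909 were in neither table. The tables of Wnt pathway probe sets were not used. 0 value columns were left out. An s_at or x_at probe set can share probes with related transcripts.

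After leaving out 62 control probe sets of 54675, limma 3.58.1 in R 4.3.3 (lmFit, eBayes) was fitted to the 6 arrays of each of 9 comparisons, and to 12 arrays for the difference in change, with adjustment over all 54613 probe sets and calls at an adjusted p under 0.05. The number of arrays limits the precision, and an exact permutation test of 3 against 3 cannot go below 0.1. Alternatives were SAM (its 20 label permutations, 5% false discovery rate), arrays centred on their medians, quantile normalisation again, a mean of at least 5, a trended robust fit, 1 probe set per gene, 1 fit over 18 arrays, a replicate block, both arrays of low EPCAM left out, and each array left out. Scripts were tested on simulated data. All 10 genes listed were to be named, with up to 4 called genes of the largest change per list and comparison, and the 3 genes nearest to FOS. Some genes that this rule names are not reported here. The genes and the lists were chosen with earlier results of these data known. Tables and figures were made with Python 3.11.15, pandas 2.3.3, numpy 2.4.6 and matplotlib 3.10.9.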

Additional observations from a re-analysis of the deposited data

Results flagged for a closer look

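In 3 instances every array of the later week lay above every 2-week array in 1 line, and below every 2-week array in the other. FOS at 10 against 2 weeks was 3.20 higher in SUM225 and differed by -0.51 in DCIS.COM on the log2 scale, a gap of 3.71 that was not tested. The DCIS.COM difference in FOS was not called (limma, adjusted p = 0.19). The EGR1 probe set 227404_s_at was 1.40 higher in SUM225 and differed by -1.32 in DCIS.COM at 10 against 2 weeks, a gap of 2.71 that was not tested. At 6 against 2 weeks the same probe set had 1.49 in SUM225 and -0.67 in DCIS.COM, a gap of 2.15 that did not pass the test of the difference in change (limma, adjusted p = 0.11). Its DCIS.COM difference at these weeks was not called (limma, adjusted p = 0.080). The brightest EGR1 probe set had 0.59 in SUM225 and 0.41 in DCIS.COM for 6 against 2 weeks.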

How the results depend on the processing

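The number of genes called, of 9, in SUM225 at 6 against 2 weeks was 5 as reported, 0 with quantile normalisation again, 3 with the trended robust fit, 8 with 1 fit over 18 arrays and 9 by SAM. Of 19147 genes, 4151 were higher and 5073 lower as reported, and 9 and 0 with quantile normalisation again. The trended robust fit gave 4165 and 6321, and 1 fit over 18 arrays 7094 and 9162. SAM called 16530 of 54613 probe sets higher and 27307 lower. These counts alone do not set the 9 apart. The SAM count was largely set in advance, since all 19 probe sets were named from the authors' SAM list for this comparison. SUM225 at 10 against 2 weeks had 6, and 3 with the trended robust fit. That fit called 4487 genes higher and 7083 lower, against 4797 and 6431 as reported. DCIS.COM at 6 against 2 weeks had 2, and 1 with 1 fit over 18 arrays and 4 by SAM. The fit over 18 arrays called 1572 genes higher and 1192 lower, against 4314 and 3838 as reported. SAM called 11232 of 54613 probe sets higher and 25176 lower. DCIS.COM at 10 against 2 weeks had 2, and 1 with a mean of at least 5 or with 1 fit over 18 arrays. Over all genes 4041 were higher and 3040 lower as reported, 4122 and 2377 with the mean, and 2140 and 2335 with the fit. The lines at 2 weeks had 1, and 6 with 1 fit over 18 arrays and 5 by SAM. There the fit over 18 arrays called 1942 genes higher and 2839 lower, against 15 and 453 as reported. SAM called 886 of 54613 probe sets higher and 4319 lower. The difference in change had 0, and 1 with 1 fit over 18 arrays, where 235 genes were higher and 199 lower, against 134 and 103 as reported. The replicate numbers were not used to pair the arrays. Deviations of same-numbered arrays from their group means correlated at 0.632, 0.377 and 0.048 between the lines at 2 weeks. The values were 0.32, 0.352 and 0.02 in SUM225 at 6 against 2 weeks, and from -0.516 to 0.242 in the other comparisons. In no comparison did every same-numbered pair correlate above 0.1. Whether arrays of the same number shared a batch was not tested. A replicate block gave 4 calls in DCIS.COM at 6 against 2 weeks, 1 at 10 against 2 weeks and 3 between the lines at 2 weeks. Over all genes the block gave 4430 higher and 3077 lower, 1885 and 289, and 131 and 1525 in these comparisons. The cause of the changes with the block was not tested. With 1 array left out, the calls ranged from 0 to 8 in SUM225 at 6 against 2 weeks, 0 to 8 at 10 against 2 weeks (0 without 2-week replicate 2 or any 10-week array) and 0 to 0 at 10 against 6 weeks. In DCIS.COM they ranged from 0 to 5 at 6 against 2 weeks, 1 to 2 at 10 against 2 weeks and 0 to 0 at 10 against 6 weeks. Between the lines they ranged from 0 to 6 at 2 weeks, 6 to 7 at 6 weeks and 6 to 8 at 10 weeks, and for the difference in change from 0 to 3. No called value changed sign in any alternative. Over all probe sets, centring the arrays moved the share of calls that were higher to 62.1% in SUM225, against 39.8% as reported, and to 74.9% in DCIS.COM, against 47.7%, for 6 against 2 weeks. SUM225 at 6 against 2 weeks had 21176 probe sets called, 42337 with 2-week replicate 1 left out and 0 with 2-week replicate 2 left out, where 19406 had an unadjusted p under 0.05.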
